A study of Homo sapiens with 18 samples.

Results

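The genes described here are the chaperones, folding enzymes and quality control proteins of the endoplasmic reticulum (ER) together with the sensors of the unfolded protein response. They were taken as a fixed list of 35 gene symbols, and a gene was measured if a probe set of the array carried its symbol and no other; where a symbol had several probe sets, that with the highest mean was used. Of the 35 genes, 34 were measured, among 18417 genes tested in all. PDIA3, a thiol oxidoreductase of the ER, was not measured because each of its 2 probe sets carried 2 symbols. All samples were NCI-H1299 cells, an established human non-small cell lung carcinoma line that lacks p53. They were transiently transfected with GFP plasmids (pIRES-2EGFP), sorted for GFP and harvested after 40 hours for total RNA on Affymetrix Gene arrays. In the first set, experiments 0, 4 and 5 were stated to be independent transfections. Each gave 1 array of cells with the empty vector, 1 with WTp53 and 1 with ΔNp53:WTp53, in which wild-type p53 is combined with the natural isoform ΔNp53. In the second set, experiments d, e and f, called control experiments, each gave 1 array of the empty vector, 1 of WTp53 and 1 of tethered WTp53. The titles of the last 3 arrays say tethered WTp53 while their transfection field says ΔNp53:WTp53; they are called tethered WTp53 here, after the titles. Thus 6 groups of 3 arrays were compared, 9 arrays to a set. The text does not say whether experiments d, e and f were separate transfections, so p-values in that set measure the spread between these arrays, which may be technical. In a bulk transient transfection, fewer cells with a transcript and less of it per cell cannot be told apart.

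Secretory and membrane proteins enter the ER through the SEC61 translocon and fold there with the help of BiP (HSPA5) and its cofactors, of lectin chaperones and of enzymes that form disulfide bonds. Proteins that fail to fold are recognised, moved back to the cytosol and degraded, a route called ER-associated degradation. The unfolded protein response is started by the sensors ATF6, IRE1 (ERN1) and PERK (EIF2AK3); ATF6 and the spliced form of XBP1 are transcription factors that raise chaperone and degradation genes through short promoter elements, the ER stress elements. A gene array measures the transcript of a sensor and not its activation, and a probe set that sums over the XBP1 transcript does not separate its spliced form.

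The promoters of 5 members that the results turn on are given because the elements through which ATF6 and XBP1 act can be read in them. HSPA5, HYOU1 and CRELD2 are chaperone genes, HERPUD1 is a degradation gene that holds such an element, and EDEM1 is the member with the largest difference from the vector. Each is the 250 bases before the gene's start in RefSeq (GRCh38.p14), 5′ to 3′ on the gene's strand, with matches to the elements in capitals. The sequences lie at chr9:125241344-125241593 (minus strand) for HSPA5, chr11:119057206-119057455 (minus strand) for HYOU1, chr22:49918384-49918633 (plus strand) for CRELD2, chr16:56931892-56932141 (plus strand) for HERPUD1 and chr3:5187457-5187706 (plus strand) for EDEM1.
HSPA5: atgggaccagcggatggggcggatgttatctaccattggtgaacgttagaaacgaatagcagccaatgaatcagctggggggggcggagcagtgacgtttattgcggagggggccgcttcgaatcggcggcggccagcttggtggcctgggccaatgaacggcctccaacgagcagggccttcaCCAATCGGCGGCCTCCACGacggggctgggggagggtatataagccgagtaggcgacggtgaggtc
HYOU1: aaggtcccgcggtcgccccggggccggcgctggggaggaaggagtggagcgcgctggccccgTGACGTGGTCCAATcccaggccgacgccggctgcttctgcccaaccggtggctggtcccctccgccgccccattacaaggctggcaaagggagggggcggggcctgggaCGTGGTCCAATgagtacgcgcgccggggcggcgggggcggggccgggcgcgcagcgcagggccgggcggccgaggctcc
CRELD2: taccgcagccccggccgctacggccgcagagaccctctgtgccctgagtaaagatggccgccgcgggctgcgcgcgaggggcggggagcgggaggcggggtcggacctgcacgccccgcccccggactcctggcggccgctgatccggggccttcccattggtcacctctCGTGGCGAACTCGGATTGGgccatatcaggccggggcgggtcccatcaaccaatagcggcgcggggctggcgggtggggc
HERPUD1: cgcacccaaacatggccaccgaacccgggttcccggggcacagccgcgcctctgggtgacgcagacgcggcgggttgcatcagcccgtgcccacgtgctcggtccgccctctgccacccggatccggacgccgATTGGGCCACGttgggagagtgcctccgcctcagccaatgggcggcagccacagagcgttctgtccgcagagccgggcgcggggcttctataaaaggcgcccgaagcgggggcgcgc
EDEM1: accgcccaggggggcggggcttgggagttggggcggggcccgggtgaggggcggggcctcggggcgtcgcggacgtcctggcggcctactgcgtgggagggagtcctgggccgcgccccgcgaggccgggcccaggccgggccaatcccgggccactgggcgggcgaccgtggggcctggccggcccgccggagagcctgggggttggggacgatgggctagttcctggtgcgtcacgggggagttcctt
The motifs were searched on both strands in windows from 250 bases before to 50 bases after each start, which the RefSeq table held for 32 of the measured members. The ER stress element, searched as CCAAT and CCACG with 9 free bases between them, was found in 8 of the 32 members (25.0%) against 0.133% of the 14239 tested genes with a window, of which it was in 19: the 8 were HSPA5, HSP90B1, CALR, CANX, PDIA6, CRELD2, XBP1 and ERO1B. The second ER stress element, searched as ATTGG and CCACG with 1 free base between them, was found in 3 members (9.38%, against 0.119% of tested genes), namely HYOU1, SDF2L1 and HERPUD1. The XBP1-binding element TGACGTGG was found in HYOU1, where it overlaps one of the 2 matches to the second element, and in DNAJC10 (6.25%, against 1.12%). The C/EBP-ATF element TGATGCAA was found in HERPUD1 (3.12%, against 0.969%). That match is in lower case in the sequence above, where capitals mark the ER stress elements and the XBP1-binding element only. In EDEM1 none of these motifs occurred in the window. A match is a description of the letters and not of a bound site. The patterns are textbook ones for this response and were not derived here, so their shares among the members are no test.

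Values are the authors' log2 intensities after RMA, and differences are on the log2 scale, each ± its standard error from a limma fit to the 9 arrays of a set, with 3 arrays against 3. A change is called at a Benjamini-Hochberg adjusted p under 0.05 over all 18417 genes. The sets were normalized apart (array medians ran from 4.89 to 4.97 and from 7.01 to 7.07), so levels are compared within a set only. With 3 arrays a group an exact permutation test of a single gene cannot go below p = 0.1 (two-sided). CDKN1A, the p53 target that encodes p21 and the one check gene outside the list, lay between 4.90 and 5.86 with the empty vector and between 9.76 and 10.00 with WTp53 in the first set, and between 8.44 and 8.67 and between 11.70 and 11.72 in the second. It rose by 4.62 ± 0.26 (adjusted p = 5.99e-06) and by 3.13 ± 0.06 (adjusted p = 1.56e-10). The rise in CDKN1A was larger in the first set by 1.49 ± 0.29 (adjusted p = 0.00476 in the fit to all 18 arrays). Of 5 epithelial markers, the keratins KRT8 (8.77 to 9.98) and KRT18 (10.09 to 10.60) lay far above the array medians in the first set, KRT19 (4.54 to 5.05) near them, and EPCAM (2.86 to 3.25) and CDH1 (3.49 to 3.77) below them. None was called with WTp53 there by limma (0 at an unadjusted p under 0.05), and 2 rose with it in the second set. Of 4 mesenchymal markers, VIM lay between 10.72 and 11.09 in the first set, CDH2 between 8.04 and 8.17 with the empty vector and between 8.55 and 8.77 with WTp53, and ZEB1 between 6.73 and 6.74 and between 6.14 and 6.49. With WTp53, 1 of the 4 rose and 1 fell in the first set and 3 rose in the second, where all 4 rose with tethered WTp53. Of 5 lung lineage markers, NKX2-1 lay between 3.31 and 3.88 in the first set and SFTPC between 4.61 and 4.91 with the empty vector and between 5.78 and 6.28 with WTp53; 1 of the 5 rose with WTp53 in the first set and none was called by limma in the second (1 at an unadjusted p under 0.05). Of 9 fibroblast and endothelial markers none was called by limma in any comparison within a set (0 to 2 a comparison at an unadjusted p under 0.05). Of 7 measured leukocyte markers 2 rose with WTp53 in each set and 1 fell in the second. Their mean level per array was 4.61 to 4.84 with the empty vector and 4.86 to 4.98 with WTp53 in the first set, and 7.03 to 7.08 and 7.13 to 7.17 in the second. PTPRC, the pan-leukocyte marker, lay at 2.61 to 2.88 in the first set, and CD3E (3.14 to 3.62) and LYZ (2.43 to 2.78) were also low. CD79A (4.86 to 5.26) and CD14 (4.41 to 5.26) lay near the array medians there. TYROBP (5.65 to 6.33) and CD68 (8.46 to 9.53) lay above them. In the second set CD68 lay between 11.24 and 11.33 with the empty vector and between 11.75 and 11.89 with WTp53. The part of these markers in the results was not tested. The spread was widest in the ΔNp53:WTp53 arrays (median SD over members 0.15, n = 3) and narrowest in WTp53 of the second set (0.030, n = 3).

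The first question was how wild-type p53 changed these genes relative to the empty vector, which each set answers with its own arrays. Of the 34 members, 12 rose and 4 fell in the first set, while 15.2% of all genes tested rose and 16.6% fell. In the second set 6 rose and 12 fell, while 17.9% of all genes rose and 18.9% fell. The median difference of the members was 0.10 in the first set (0.024 over all genes) and −0.093 in the second (−0.023 over all genes). The calls named 9 members in the same direction in both sets: EDEM1, EDEM2, SEC61A1, ERO1B and WFS1 rose, and DERL1, DERL2, XBP1 and ATF6 fell. These 9 were 56.2% of the 16 members called in the first set and 50% of the 18 called in the second. For the calls over all genes these shares were 71.3% and 61.8%. No member was called in opposite directions. Over all genes such calls were also few, 45 against 1987 that rose and 2194 that fell in both sets. Without the arrays of experiment d, 10 members were called in the second set in place of 18, and of the 9 shared members DERL1, XBP1, ERO1B and WFS1 were lost there. The members called in the first set alone were HSPA5, HYOU1, CALR, SDF2L1, CRELD2, MANF and PDIA4, all of which rose. Those called in the second set alone were HSP90B1, CANX, DNAJC3, DNAJC10, EDEM3, HERPUD1, SEL1L and EIF2AK3, which fell, and ERO1A, which rose.

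**Figure D1:**
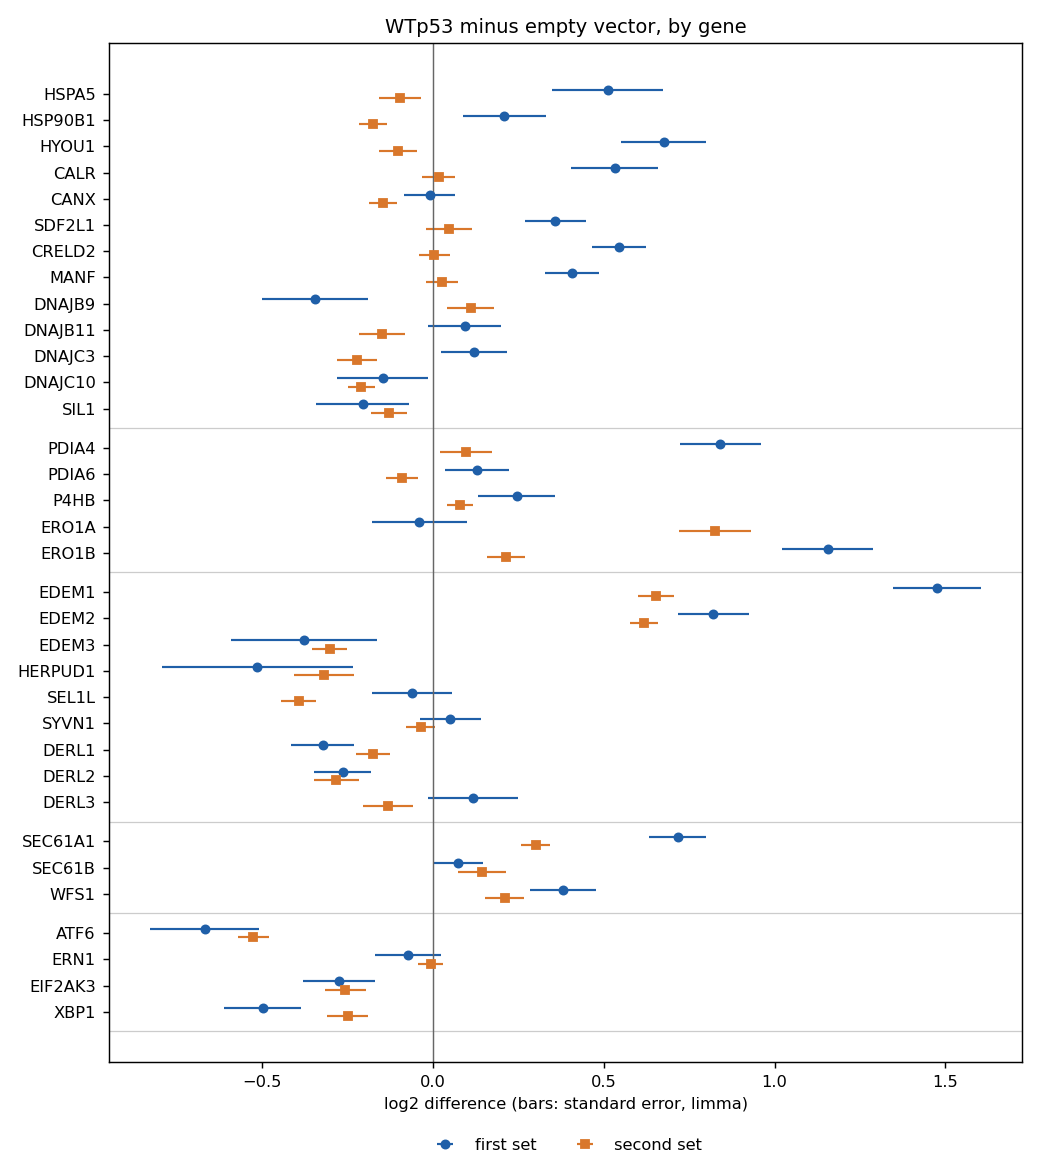
The log2 difference between WTp53 and the empty vector (x axis) is drawn for each of the 34 members, ordered by role from top to bottom (luminal chaperones, disulfide enzymes, degradation, translocon and WFS1, sensors with XBP1), with circles for the first set, squares for the second and bars for the standard error of the limma fit. EDEM1 lies farthest to the right in the first set at 1.48, and HSPA5, HYOU1, CALR, CRELD2 and MANF lie to the right of 0 in the first set, between 0.41 and 0.68, and between −0.10 and 0.027 in the second.

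Among the genes of ER-associated degradation, the mannose trimming factors EDEM1 and EDEM2 were higher with WTp53 in every array. EDEM1, which directs misfolded glycoproteins to degradation, had log2 values of 6.20, 5.97 and 6.09 with the empty vector and 7.39, 7.65 and 7.64 with WTp53 in experiments 0, 4 and 5. In experiments d, e and f it had 7.34, 7.34 and 7.33 with the empty vector and 7.97, 8.03 and 7.97 with WTp53. The groups did not overlap in either set, and the rise was 1.48 ± 0.13 (2.78-fold, adjusted p = 4.77e-05) in the first set and 0.65 ± 0.054 (1.57-fold, adjusted p = 4.12e-06) in the second. The rise in EDEM1 was larger in the first set by 0.82 ± 0.14 (adjusted p = 0.00268). EDEM2, a mannosidase that acts at the first trimming step, had 7.58, 7.46 and 7.32 with the empty vector against 8.35, 8.17 and 8.29 with WTp53 in the first set, and 9.89, 9.87 and 9.87 against 10.53, 10.48 and 10.47 in the second. It rose by 0.82 ± 0.10 (adjusted p = 0.000332) and 0.62 ± 0.041 (adjusted p = 8.1e-07), and the difference between the sets of 0.20 ± 0.11 was not called (adjusted p = 0.236). Their relative EDEM3 went the other way: it fell by 0.30 in the second set (adjusted p = 0.000771), with a difference of −0.38 in the first (adjusted p = 0.219).

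The derlins, membrane proteins of the route back to the cytosol, were lower with WTp53 for 2 of 3 members. DERL1 fell by 0.32 in the first set (adjusted p = 0.0222) and by 0.18 in the second (adjusted p = 0.0153). DERL2 had 9.09, 9.04 and 9.14 with the empty vector and 8.87, 8.83 and 8.79 with WTp53 in the first set, and 10.39, 10.35 and 10.36 with the empty vector and 10.09, 10.07 and 10.09 with WTp53 in the second. Its groups did not overlap in either set, and it fell by 0.26 (adjusted p = 0.0341) and by 0.28 (adjusted p = 0.00575). DERL3 was called in no comparison. The ubiquitin ligase adaptor SEL1L fell in the second set by 0.39 (adjusted p = 0.000122) and HERPUD1, a membrane protein of the same complex, by 0.32 (adjusted p = 0.0151); in the first set their differences were −0.062 (adjusted p = 0.744) and −0.51 (adjusted p = 0.204; with the experiment as a replicate block 0.037). The ligase itself, SYVN1, differed by 0.051 and −0.037 (adjusted p = 0.726 and 0.563). Of the 9 degradation members, 2 rose and 2 fell in the first set (15.2% and 16.6% of all genes) and 2 rose and 5 fell in the second (17.9% and 18.9%). In the first set the call of DERL1 was lost without vector 4 or 5 or WTp53 4 or 5 (adjusted p up to 0.0891). That of DERL2 was lost without any one of the 6 arrays (up to 0.112). In the second set DERL1 was lost without vector d and all of experiment d (up to 0.0985 over its alternatives) and HERPUD1 without vector e or f or WTp53 f (up to 0.409 over its alternatives).

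At the translocon, SEC61A1, the channel-forming subunit, had 9.98, 9.82 and 9.87 with the empty vector and 10.56, 10.64 and 10.61 with WTp53 in the first set. In the second it had 11.79, 11.69 and 11.72 with the empty vector and 12.03, 12.00 and 12.07 with WTp53. Every WTp53 array lay above every vector array of its set, and the rise was 0.72 ± 0.083 (adjusted p = 0.000203) and 0.30 ± 0.043 (adjusted p = 0.000247), larger in the first set by 0.42 ± 0.087 (adjusted p = 0.00686). Its small partner SEC61B was not called (0.073 and 0.14, adjusted p = 0.503 and 0.148). WFS1, an ER membrane protein mutated in Wolfram syndrome, rose by 0.38 ± 0.097 (adjusted p = 0.0134) and 0.21 ± 0.057 (adjusted p = 0.0134). The first-set call of WFS1 was lost without vector 5 or WTp53 4 or 5 (adjusted p up to 0.0573) and its second-set call without all of experiment d (0.0747).

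The calls of the luminal chaperones differed between the sets. In the first set 6 of these 13 genes rose with WTp53 and none fell (median difference 0.21), where 15.2% of all genes rose and 16.6% fell. In the second none rose and 4 fell (median −0.10), where 17.9% of all genes rose and 18.9% fell. At limma's unadjusted p under 0.05 the first-set counts were 6 and 0, against 3666 and 3836 of all 18417 genes. In the second set they were 0 and 6, against 3811 and 4262. HSPA5 (BiP), the central Hsp70 chaperone of the ER lumen and added to the detailed genes after its values were seen, had 11.35, 11.10 and 10.94 with the empty vector and 11.76, 11.63 and 11.52 with WTp53 in experiments 0, 4 and 5. In experiments d, e and f it had 12.45, 12.45 and 12.47 with the empty vector and 12.33, 12.37 and 12.38 with WTp53. All WTp53 arrays were higher than the vector arrays in the first set and all were lower in the second. HSPA5 rose by 0.51 ± 0.16 in the first set (adjusted p = 0.0375) and differed by −0.097 ± 0.061 in the second (adjusted p = 0.256). Its nucleotide exchange factor HYOU1 had 8.11, 8.07 and 8.14 with the empty vector against 8.82, 8.81 and 8.71 with WTp53 in the first set, and 9.81, 9.80 and 9.80 against 9.67, 9.68 and 9.75 in the second. The groups did not overlap, and the difference was 0.68 ± 0.12 (adjusted p = 0.00239) in the first set and −0.10 ± 0.055 (adjusted p = 0.178) in the second. CRELD2, a small secreted protein of the ER stress response, had 6.62, 6.50 and 6.50 with the empty vector against 7.12, 7.12 and 7.00 with WTp53 in the first set and rose by 0.54 ± 0.079 (adjusted p = 0.000651). In the second set CRELD2 had 7.90, 7.90 and 7.90 against 7.90, 7.91 and 7.90, a difference of 0.0033 with a standard error of 0.045 (adjusted p = 0.966). CALR, a lectin chaperone, rose by 0.53 ± 0.13 (adjusted p = 0.00949), MANF, an ER stress-inducible secreted factor, by 0.41 ± 0.080 (adjusted p = 0.00334) and SDF2L1, a partner of the DnaJ proteins, by 0.36 ± 0.089 (adjusted p = 0.0114).

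The difference between the effects of WTp53 in both sets was itself tested in a fit to all 18 arrays. It passed for 9 members with the larger value in the first set and for 1 with the smaller, while 5.93% of all genes tested passed in the first direction and 6.55% in the second; the median over members was 0.19, against 0.027 over all genes. It passed in the first direction for 5 of 13 luminal chaperones, 2 of 5 disulfide enzymes, 1 of 9 degradation members and 1 of 3 genes of the translocon and WFS1. In the second direction it passed for 1 disulfide enzyme. Without the arrays of experiment 0 it passed for 17 members in all. Among the chaperones it was 0.78 ± 0.14 for HYOU1 (adjusted p = 0.00309), 0.61 ± 0.18 for HSPA5 (0.0414), 0.54 ± 0.083 for CRELD2 (0.00148), 0.52 ± 0.14 for CALR (0.025) and 0.38 ± 0.085 for MANF (0.0103). It was not called for SDF2L1 (0.31, adjusted p = 0.0713) or for HSP90B1 (GRP94), the Hsp90 of the lumen (0.38, adjusted p = 0.0613), and with the experiment as a replicate block it passed for HSP90B1 (0.0118) and DNAJC3 (0.0437). HSP90B1 fell in the second set by 0.18 (adjusted p = 0.00505), as did CANX, a membrane lectin chaperone, by 0.15 (0.0145) and the J-domain co-chaperones DNAJC3 by 0.22 (0.0122) and DNAJC10 by 0.21 (0.00177). The other J-domain proteins DNAJB9 and DNAJB11 and the exchange factor SIL1 were called in neither set. The rise of HSPA5 in the first set was lost without vector 4 or 5 or without any one of the WTp53 arrays (adjusted p up to 0.138). Its difference between the sets passed in 8 of 19 alternatives (up to 0.088), being lost without any one of those arrays or of the vector and WTp53 arrays d, e and f. The first-set call of SDF2L1 was lost without vector 5 (0.052). The difference between the sets was lost for CALR without vector 4, 5 or f or WTp53 d (up to 0.0542). The second-set call of DNAJC3 was lost without vector f or WTp53 f (up to 0.144 over its alternatives) and that of CANX without all of experiment d (up to 0.114 over its alternatives). The 7 members whose second-set calls for WTp53 held under every alternative included neither HSP90B1 nor DNAJC10.

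**Figure D2:**
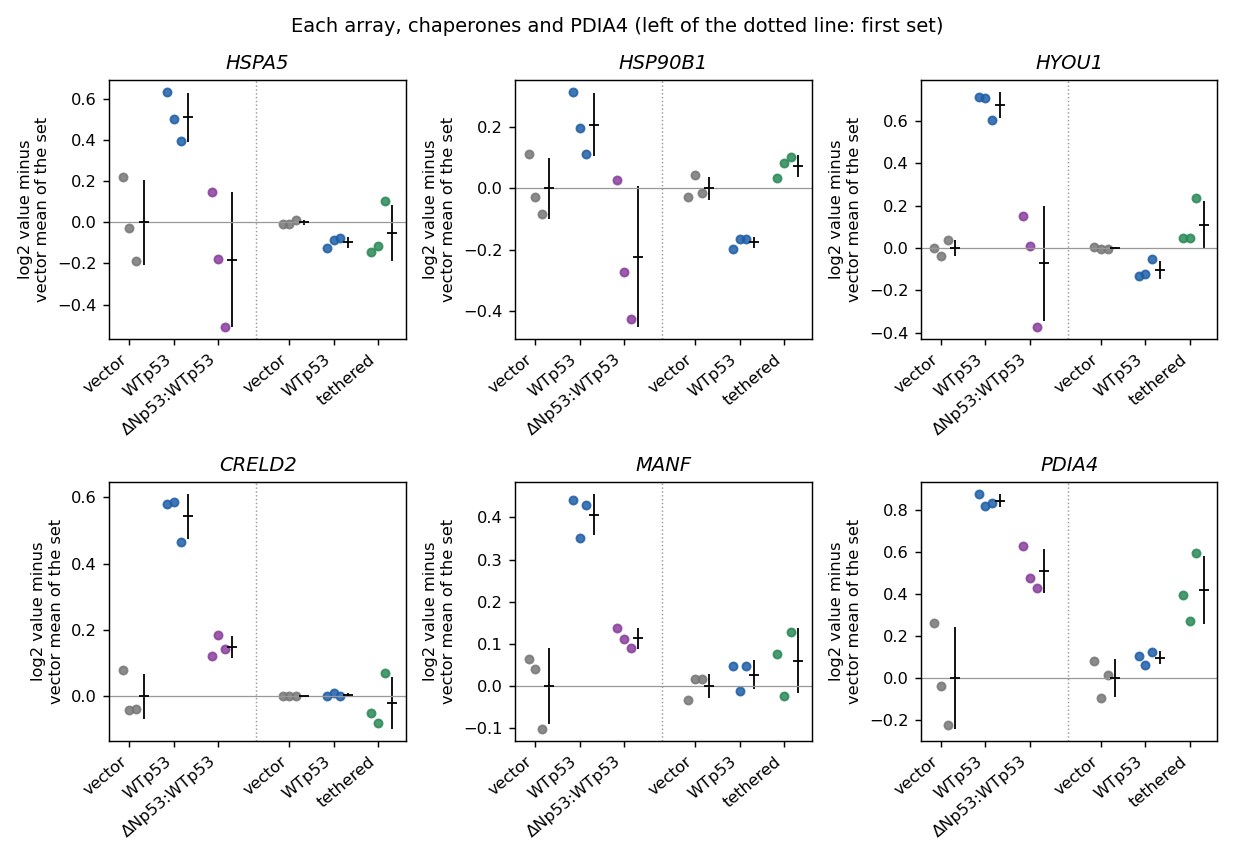
Each point is the log2 value of 1 array less the mean of the vector arrays of its set (y axis), for HSPA5, HSP90B1, HYOU1, CRELD2, MANF and PDIA4, with the groups on the x axis and the first set to the left of the dotted line; black marks give the mean and SD of the 3 arrays. With WTp53 the HYOU1 points lie well above the vector points in the first set and slightly below them in the second.

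Among the enzymes of disulfide bond formation, the oxidase ERO1B rose in both sets, PDIA4 rose in the first and ERO1A rose in the second. PDIA4, a disulfide isomerase of the lumen, had 9.37, 9.07 and 8.89 with the empty vector and 9.99, 9.93 and 9.94 with WTp53 in the first set and rose by 0.84 ± 0.12 (adjusted p = 0.000583). In the second set it had 10.17, 9.99 and 10.10 with the empty vector and 10.19, 10.15 and 10.21 with WTp53, groups that overlapped, with a difference of 0.097 ± 0.076 (adjusted p = 0.367) and a difference between the sets of 0.75 ± 0.15 (adjusted p = 0.00493). ERO1B, which reoxidises the isomerases, had 5.35, 5.31 and 5.61 with the empty vector and 6.49, 6.66 and 6.59 with WTp53 in the first set, and 7.50, 7.36 and 7.55 with the empty vector and 7.66, 7.73 and 7.66 with WTp53 in the second. It rose by 1.16 ± 0.13 (adjusted p = 0.000192) and 0.21 ± 0.057 (adjusted p = 0.012), larger in the first set by 0.94 ± 0.15 (adjusted p = 0.00174). Its paralogue ERO1A had 8.55, 8.20 and 8.23 with the empty vector against 8.35, 8.31 and 8.19 with WTp53 in the first set, a difference of −0.040 ± 0.14 (adjusted p = 0.867). It had 9.94, 10.14 and 10.03 against 10.80, 11.00 and 10.79 in the second, a rise of 0.83 ± 0.11 (adjusted p = 0.000101). The difference between the sets for ERO1A was −0.87 ± 0.19 (adjusted p = 0.00815). PDIA6 and P4HB, further isomerases, were called in neither set. The second-set call of ERO1B was lost without WTp53 e (adjusted p up to 0.196 over its alternatives).

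The sensors and XBP1 moved down where they were called. ATF6 had 8.55, 8.65 and 8.68 with the empty vector and 8.06, 8.01 and 7.80 with WTp53 in the first set, and 10.60, 10.61 and 10.61 with the empty vector and 10.10, 10.13 and 10.01 with WTp53 in the second. The groups were apart in both sets, and ATF6 fell by 0.67 (adjusted p = 0.00959) and by 0.53 (adjusted p = 5.97e-06). XBP1 fell by 0.50 (adjusted p = 0.00718) and by 0.25 (adjusted p = 0.00724). EIF2AK3 (PERK), the kinase that slows translation, fell in the second set by 0.26 (adjusted p = 0.00656) with a difference of −0.28 in the first (adjusted p = 0.071; with the experiment as a replicate block 0.0467), and ERN1 (IRE1), the nuclease that splices XBP1, was called in no comparison. Without all of experiment d the second-set calls of XBP1 (adjusted p = 0.0962) and EIF2AK3 (0.103) were lost. For none of these 4 genes did the difference between the sets pass (adjusted p from 0.219 for XBP1 to 0.938 for EIF2AK3).

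**Figure D3:**
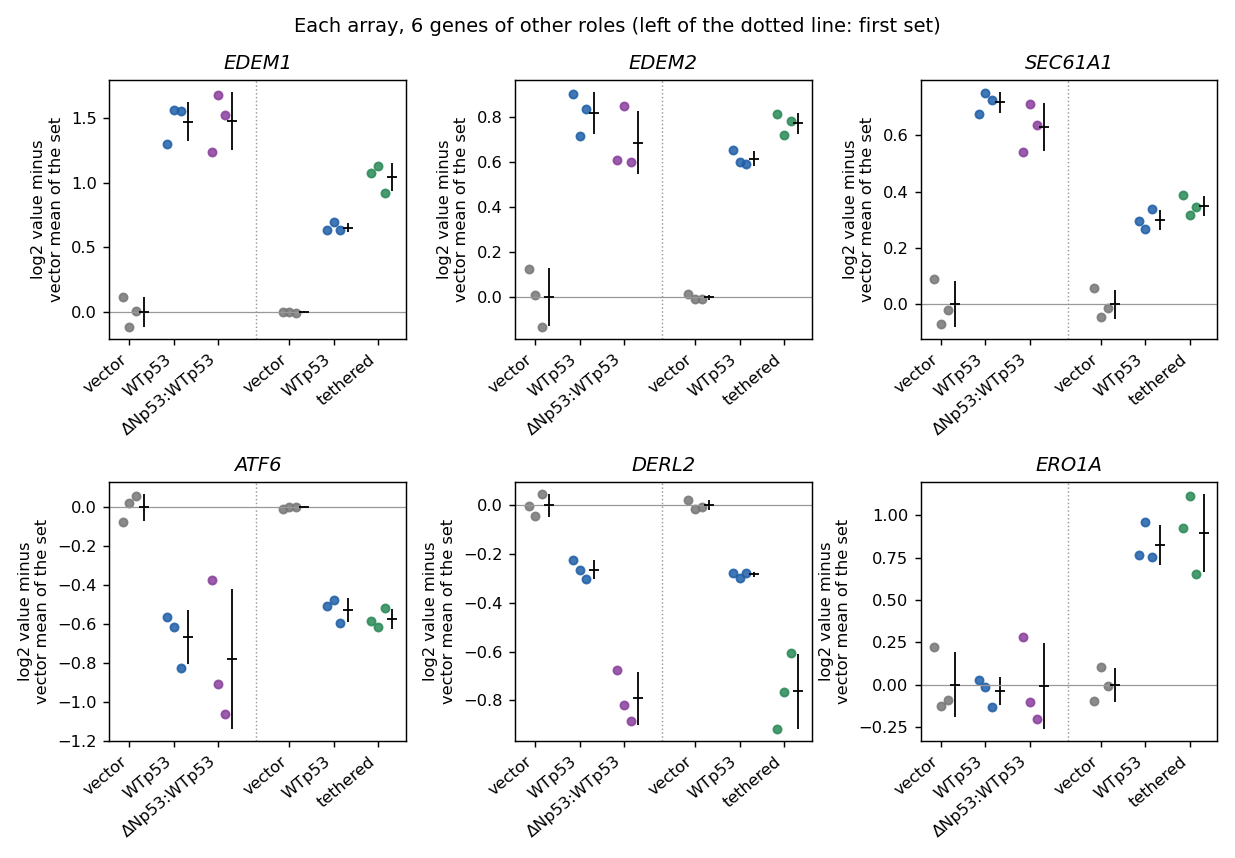
Each point is the log2 value of 1 array less the mean of the vector arrays of its set (y axis), for EDEM1, EDEM2, SEC61A1, ATF6, DERL2 and ERO1A, with the groups on the x axis and the first set to the left of the dotted line; black marks give the mean and SD of the 3 arrays. EDEM1, EDEM2 and SEC61A1 lie above the vector and ATF6 and DERL2 below it with every p53 construct, while ERO1A lies above the vector in the second set.

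The p53 constructs were then compared with the empty vector. These comparisons share their vector arrays with those of WTp53 in the same set, so the values are given side by side. With ΔNp53:WTp53, 6 members rose and 8 fell (median −0.11, against 0.0053 over all genes), while 15.7% of all genes tested rose and 20.3% fell. With tethered WTp53, 9 rose and 12 fell (median −0.0083, against 0 over all genes), while 21.6% of all genes rose and 26.2% fell. EDEM1 had 7.32, 7.77 and 7.61 with ΔNp53:WTp53 and 8.41, 8.47 and 8.26 with tethered WTp53, a rise of 1.48 ± 0.13 (adjusted p = 4.03e-05) and of 1.04 ± 0.054 (adjusted p = 5.81e-08). EDEM2 had 8.06, 8.30 and 8.05 and 10.69, 10.60 and 10.66 and rose by 0.69 ± 0.10 (adjusted p = 0.000801) and 0.77 ± 0.041 (adjusted p = 6.69e-08). SEC61A1 had 10.43, 10.60 and 10.53 with ΔNp53:WTp53 and rose by 0.63 ± 0.083 (adjusted p = 0.000384). ERO1B, WFS1 and PDIA4 also rose with both constructs. These arrays lay above all vector arrays of their set for EDEM1, EDEM2 and SEC61A1.

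Called lower with both constructs than with the vector were DERL1, DERL2, ATF6, SEL1L, EDEM3, HERPUD1, DNAJB11 and SIL1. DERL2 had 8.42, 8.27 and 8.21 with ΔNp53:WTp53 and fell by 0.79 (adjusted p = 0.000108). ATF6 had 10.02, 9.99 and 10.09 with tethered WTp53 and fell by 0.57 (adjusted p = 1.47e-06), and with ΔNp53:WTp53 it fell by 0.78 (adjusted p = 0.00385). HERPUD1 fell by 1.09 with ΔNp53:WTp53 (adjusted p = 0.012) and by 0.34 with tethered WTp53 (adjusted p = 0.00801). SEL1L fell by 0.48 (adjusted p = 0.00946) and by 0.39 (adjusted p = 6.76e-05). With tethered WTp53 the calls further took in DNAJC3, DNAJC10, EIF2AK3 and XBP1, which fell, and ERO1A (0.90, adjusted p = 2.97e-05), P4HB and SYVN1, which rose. The luminal chaperones that rose with WTp53 in the first set, HSPA5 (−0.18), HYOU1 (−0.071), CALR (0.30), SDF2L1 (0.17), CRELD2 (0.15) and MANF (0.11), were not called with ΔNp53:WTp53 (adjusted p from 0.100 to 0.721). With the experiment as a replicate block CALR (adjusted p = 0.044), DNAJC10 (0.0319) and EIF2AK3 (0.0419) passed there. With ΔNp53:WTp53 the calls of DNAJB11, EDEM3, HERPUD1, SIL1 and WFS1 were each lost without 1 or more single arrays. HERPUD1 was lost without ΔNp53:WTp53 4 or 5 (adjusted p up to 0.0526), EDEM3 without those or vector 4 or 5 (up to 0.0767) and DNAJB11 without the same 4 arrays (up to 0.115). SIL1 was lost without ΔNp53:WTp53 0 or 5 or vector 4 or 5 (up to 0.163) and WFS1 without ΔNp53:WTp53 4 or vector 0 or 5 (up to 0.119). With tethered WTp53 the same held for P4HB (without tethered d or f or any vector array, up to 0.505, and 0.0548 with the experiment as a replicate block) and DNAJC3 (tethered d or e, vector d or f, up to 0.182). It also held for SIL1 (tethered e, vector d or e, up to 0.307), SYVN1 (tethered f, vector e, up to 0.265) and XBP1 (tethered e, vector d, up to 0.167), each highest value being over all its alternatives. DNAJB11 and HERPUD1 were lost there without all of experiment d (up to 0.0778 and 0.301 over their alternatives).

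The last question was how each construct differed from WTp53 itself. With ΔNp53:WTp53, none of the members was higher and 3 were lower than with WTp53 (median −0.22, against −0.015 over all genes), while 1.56% of all genes tested were higher and 0.88% lower. At limma's unadjusted p under 0.05, 1 member was higher and 14 were lower, against 1583 and 1725 of all 18417 genes. HYOU1 had 8.82, 8.81 and 8.71 with WTp53 and 8.26, 8.11 and 7.73 with ΔNp53:WTp53, which did not overlap, and fell by 0.75 (adjusted p = 0.0181). CRELD2 had 6.66, 6.72 and 6.68 with ΔNp53:WTp53, also below every WTp53 array, and fell by 0.39 (adjusted p = 0.0328). DERL2 fell by 0.53 (adjusted p = 0.0146). HSPA5 had 11.27, 10.95 and 10.62 with ΔNp53:WTp53, below every WTp53 array, but its difference of −0.69 ± 0.16 was not called (adjusted p = 0.0586). With the experiment as a replicate block, 5 members were called: HSPA5 (adjusted p = 0.00952) and HSP90B1 (adjusted p = 0.0340) were added to the 3. The median difference of the 13 luminal chaperones was −0.24, −0.36 and −0.34 in experiments 0, 4 and 5. None of the 3 calls held under every alternative. HYOU1 was lost without ΔNp53:WTp53 4 or any one WTp53 array (adjusted p up to 0.0877), CRELD2 without ΔNp53:WTp53 4 or 5 or any one WTp53 array (up to 0.149) and DERL2 without ΔNp53:WTp53 4 or WTp53 4 or 5 (up to 0.0769), and 13 members were called without the arrays of experiment 0. No member was called without ΔNp53:WTp53 4 or without WTp53 4 or 5, and 12 were called without ΔNp53:WTp53 0. At limma's unadjusted p under 0.05 the lower members then numbered 10 to 17. Unadjusted counts over all genes were not made for these settings.

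**Figure D4:**
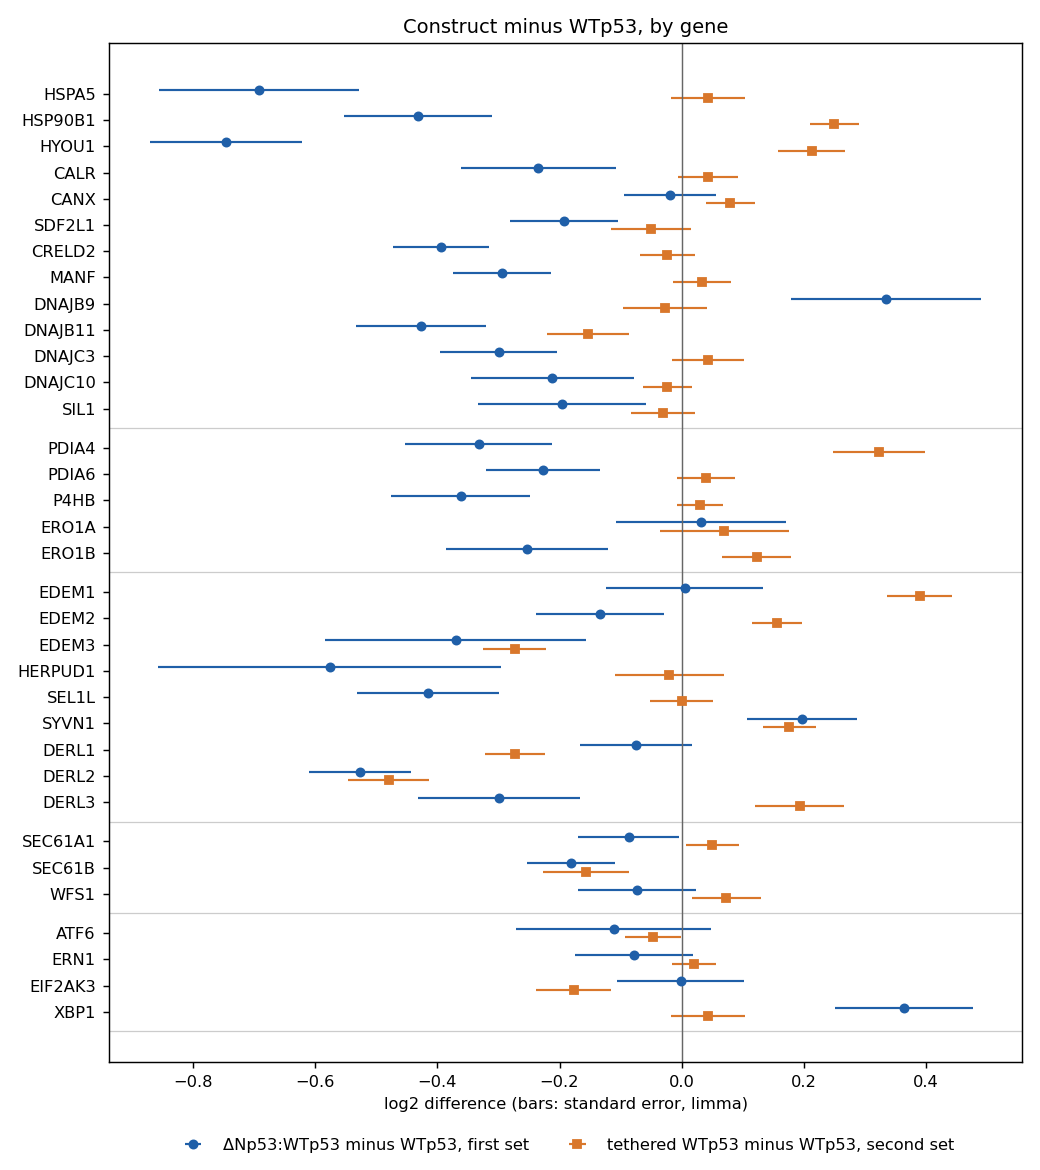
The log2 difference from WTp53 (x axis) is drawn for each of the 34 members, in the order of roles used above, with circles for ΔNp53:WTp53 in the first set, squares for tethered WTp53 in the second and bars for the standard error of the limma fit. HSPA5 and HYOU1 lie at −0.69 and −0.75 with ΔNp53:WTp53 and at 0.043 and 0.21 with tethered WTp53, and DERL2 lies to the left of 0 with both.

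With tethered WTp53, 6 members were higher and 4 lower than with WTp53 (median 0.037, against 0.017 over all genes), while 14.9% of all genes tested were higher and 17.5% lower. EDEM1 rose by 0.39 ± 0.054 (adjusted p = 0.000407), and its tethered arrays lay above those of WTp53. HSP90B1 had 12.28, 12.31 and 12.31 with WTp53 and 12.51, 12.56 and 12.58 with tethered WTp53 and rose by 0.25 ± 0.040 (adjusted p = 0.00098), the groups not overlapping. PDIA4 rose by 0.32 ± 0.076 (0.00794), HYOU1 by 0.21 ± 0.055 (0.0129), SYVN1 by 0.18 ± 0.043 (0.0102) and EDEM2 by 0.16 ± 0.041 (0.0135), with adjusted p in parentheses. DERL2 had 9.45, 9.60 and 9.76 with tethered WTp53 and fell by 0.48 (adjusted p = 0.000407), so that it was lower than its control in each of the 6 comparisons within sets. DERL1 fell by 0.27 (0.00185), EDEM3 by 0.27 (0.00248) and EIF2AK3 by 0.18 (0.0486). The call of EIF2AK3 was lost without tethered d or f or any one WTp53 array (adjusted p up to 0.239 over its alternatives) and that of EDEM2 without WTp53 f (up to 0.235). Without the arrays of experiment d, 4 members were called in place of 10, and HYOU1, PDIA4, EDEM2, EDEM3, SYVN1 and EIF2AK3 were lost.

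The constructs were set against each other through their differences from WTp53 in their own sets. This difference of differences passed for 6 members, all lower for ΔNp53:WTp53 and none higher, while 1.42% of all genes tested passed in the first direction and 1.54% in the second (median over members −0.23, against −0.020 over all genes). At limma's unadjusted p under 0.05 it was lower for 15 members and higher for 1, against 1729 and 1534 of all 18417 genes. Without the arrays of experiment 0 it passed for 17 members, and it passed for 2 to 10 when single arrays were left out. It was −0.96 ± 0.14 for HYOU1 (adjusted p = 0.00197), −0.74 ± 0.18 for HSPA5 (0.0411), −0.68 ± 0.13 for HSP90B1 (0.00997), −0.66 ± 0.15 for PDIA4 (0.025), −0.37 ± 0.083 for CRELD2 (0.025) and −0.33 ± 0.085 for MANF (0.0481). These 6 are luminal chaperones and 1 isomerase, and for 5 of them, all but HSP90B1, the effect of WTp53 itself also differed between the sets; both differences use the same WTp53 arrays. With the experiment as a replicate block MANF did not pass (adjusted p = 0.0555) and P4HB did (0.0461). For DERL2 the value was −0.047 with a standard error of 0.10 (adjusted p = 0.864). HYOU1 and HSP90B1 passed under all 19 alternatives. HSPA5 passed under 8, PDIA4 under 10, CRELD2 under 12 and MANF under 4. Each was lost without tethered d or f, without any one WTp53 array of the second set or without WTp53 4. HSPA5 was further lost without tethered e, ΔNp53:WTp53 4 or 5 or WTp53 0 or 5, PDIA4 without ΔNp53:WTp53 4 or WTp53 5, and MANF without tethered e or any one ΔNp53:WTp53 or WTp53 array of the first set. The highest adjusted p was 0.0997 for HSPA5, 0.0769 for PDIA4, 0.0852 for CRELD2 and 0.195 for MANF.

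The members with an ER stress element in the window did not move as one. Over all genes tested, 15.2% rose and 16.6% fell with WTp53 in the first set, and 17.9% rose and 18.9% fell in the second. Of the 11 with either element, 6 rose (HSPA5, HYOU1, CALR, SDF2L1, CRELD2 and ERO1B) and 1 fell (XBP1) with WTp53 in the first set, and 1 rose (ERO1B) and 4 fell (HSP90B1, CANX, HERPUD1 and XBP1) in the second. Of the 21 without either, 6 rose and 2 fell in the first set and 5 rose and 7 fell in the second; these include EDEM1, EDEM2, SEC61A1, DERL2 and ATF6. Lower with ΔNp53:WTp53 than with WTp53 were 2 of the 11 (HYOU1 and CRELD2) and 1 of the 21 (DERL2), against 0.88% of all genes. In the difference between the constructs, 4 of the 11 and 2 of the 21 passed, all lower for ΔNp53:WTp53, against 1.42% of all genes in that direction. These counts are descriptions of small groups with no test.

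Genes outside the list were read from further lists by function, which are not limited to proteins that reside in the ER. Of all genes tested, 15.2% rose and 16.6% fell with WTp53 in the first set, and 17.9% and 18.9% did in the second. In the calnexin and calreticulin cycle with N-glycan trimming, 2 of 10 measured genes rose and none fell with WTp53 in the first set by limma (3 and 0 at an unadjusted p under 0.05), and 3 rose and 2 fell in the second. MAN1A1, a mannosidase that trims N-glycans, rose by 2.56 ± 0.16 (adjusted p = 1.14e-05) and 1.37 ± 0.059 (adjusted p = 4.5e-08), more than any member. MLEC, a lectin that binds newly made glycans, rose by 0.87 ± 0.11 in the first set (adjusted p = 0.000244). Of 30 other foldases and oxidoreductases, 7 rose and 2 fell in the first set and 10 rose and 3 fell in the second. TOR1A, an ATPase of the ER lumen, rose in both (0.71 ± 0.090 and 0.42 ± 0.049, adjusted p = 0.000332 and 5.33e-05), and TMX3, a membrane oxidoreductase, fell by 0.62 and 0.38 (adjusted p = 0.000924 and 0.000113). Of 24 other degradation genes, 6 rose and 7 fell in the first set and 3 rose and 4 fell in the second. FBXO6, an F-box protein that binds glycoproteins, rose by 0.61 ± 0.13 and 0.45 ± 0.053 (adjusted p = 0.00521 and 5.76e-05). Of 23 other genes of the translocon and signal peptide processing, 3 rose and 5 fell in the first set and 2 rose and 7 fell in the second, and SEC62, a partner of the channel, fell by 1.02 in the first (adjusted p = 7.31e-05).

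The signalling genes beyond the sensors were called in both directions. Of 36 measured, 7 rose and 11 fell with WTp53 in the first set, where 15.2% of all genes rose and 16.6% fell. In the second 9 rose and 11 fell, where 17.9% and 18.9% of all genes did. BCL2L11, which encodes the apoptosis inducer BIM, rose by 2.14 ± 0.24 (adjusted p = 0.000148) and 1.58 ± 0.058 (adjusted p = 1.42e-08). PPP1R15B, a phosphatase subunit that acts on eIF2α, fell by 1.08 (adjusted p = 4.49e-05) in the first set. ASNS, asparagine synthetase, fell by 1.40 there (adjusted p = 7.09e-05). DDIT3 (CHOP), a transcription factor downstream of PERK, fell by 1.21 in the second (adjusted p = 9.18e-08). CHAC1, a glutathione-degrading enzyme and target of ATF4, was higher than with WTp53 by 1.51 ± 0.13 with ΔNp53:WTp53 (adjusted p = 0.00167) and by 1.38 ± 0.044 with tethered WTp53 (adjusted p = 2.16e-07). In these comparisons 3 of the 36 rose and 1 fell (1.56% and 0.88% of all genes), and 11 rose and 9 fell (14.9% and 17.5%). Of 23 cytosolic and mitochondrial heat shock genes, 8 rose and 3 fell in the first set and 6 rose and 3 fell in the second with WTp53. CRYAB, a small heat shock protein, rose by 2.07 ± 0.14 (adjusted p = 1.56e-05) and 1.57 ± 0.12 (adjusted p = 2.15e-06). With ΔNp53:WTp53, CRYAB was lower than with WTp53 by 1.44 (adjusted p = 0.00252), the 1 of these 23 genes called there.

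When arrays of the second set were centred on their medians, the share of calls over all genes that were rises went from 48.7% to 36.9% for WTp53 against the vector, from 45.2% to 31.9% for tethered WTp53 against the vector and from 45.9% to 34.9% for tethered against WTp53. The members called were then 6 up and 15 down in place of 6 and 12, 7 and 14 in place of 9 and 12, and 6 and 4 in both. The shares of all genes called up and down after centring are not given, so these member counts have no background beside them.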

How the data were processed

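The deposited values are log2 intensities for 33297 probe sets, which the authors made with RMA in Affymetrix Expression Console, per the submitters' processing notes; versions are not given in the sources used here. Probe sets were named through GEO's platform annotation: 19460 carried 1 symbol, 1754 several and 12083 none listed here. The row with the highest mean stood for a symbol, giving 18417 genes, and 18392 symbols matched the current RefSeq gene table. No value was dropped, imputed or normalized again.

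The values of each set were fitted alone with limma 3.58.1 in R 4.3.3 (9 arrays, 6 residual degrees of freedom), with Benjamini-Hochberg adjustment over all genes; the effects were compared between sets in 1 fit to all 18 arrays (12 residual degrees of freedom). An earlier joint fit of both sets was kept as an alternative. Code for the fits was tested on simulated data. Alternatives changed the arrays that share the spread, the block, the normalization, the choice of probe set, the variance model and a filter at the 40th percentile, and left out arrays.

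The members and lists were chosen with earlier results of these data known. Members were described by role; array values are given for the 3 called members with the smallest p in each comparison within a set and for HSPA5, PDIA4 and ERO1A, which were added after their values were seen; of other lists up to 3 called genes per comparison with the smallest p were eligible. In the first set, deviations from group means of arrays of the same experiment correlated (0.11 to 0.57, median 0.28, 9 pairs of arrays, against −0.50 to 0.35 for different experiments), so experiment numbers pair the samples, as the series text states; in the second they did not (−0.039 to 0.13). The main fits held group means only and left this pairing out. The alternative with the experiment as a replicate block takes it in. The number of arrays limits the precision. Labels gave no scan date or batch. Promoter sequences are RefSeq's (GRCh38.p14).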

Additional observations from a re-analysis of the deposited data

Results flagged for a closer look

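For 10 members the effect of WTp53 against the empty vector differed between the sets, by a test of the difference itself in a limma fit to all 18 arrays (3 arrays a group). The first set minus the second was 0.94 ± 0.15 for ERO1B (adjusted p = 0.00174), 0.82 ± 0.14 for EDEM1 (0.00268), 0.78 ± 0.14 for HYOU1 (0.00309), 0.75 ± 0.15 for PDIA4 (0.00493), 0.61 ± 0.18 for HSPA5 (0.0414), 0.54 ± 0.083 for CRELD2 (0.00148), 0.52 ± 0.14 for CALR (0.0250), 0.42 ± 0.087 for SEC61A1 (0.00686), 0.38 ± 0.085 for MANF (0.0103) and −0.87 ± 0.19 for ERO1A (0.00815). EDEM1, SEC61A1 and ERO1B rose in both sets and differ in size, while for ERO1A the rise was called in the second set. Beside these values, CDKN1A also rose further in the first set, by 1.49 ± 0.29 (adjusted p = 0.00476), and the sets were normalized apart; the part of either in the differences was not tested.

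For 6 members the difference between the construct and WTp53 differed between ΔNp53:WTp53 in the first set and tethered WTp53 in the second, by the same fit. It was −0.96 ± 0.14 for HYOU1 (adjusted p = 0.00197), −0.74 ± 0.18 for HSPA5 (0.0411), −0.68 ± 0.13 for HSP90B1 (0.00997), −0.66 ± 0.15 for PDIA4 (0.0250), −0.37 ± 0.083 for CRELD2 (0.0250) and −0.33 ± 0.085 for MANF (0.0481). The construct and the set cannot be told apart in this comparison.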

How the results depend on the processing

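Each count of called members was recomputed under 15 alternatives (19 for the differences between sets). The numbers of all genes called under these alternatives are not given here or above. Whether the members changed more than other genes can therefore not be read from these counts. Against the vector, the counts for WTp53 in the first set (16 members, 11 to 19), ΔNp53:WTp53 (14, 10 to 19) and tethered WTp53 (21, 14 to 21) stayed within 1.5 times their values. For ΔNp53:WTp53 against WTp53 the 3 members became 13 in 1 fit to all 18 arrays, 13 without experiment 0, 5 with the experiment as a replicate block, 0 with the 6 arrays compared alone, and 0 to 12 when single arrays were left out. For WTp53 in the second set the 18 became 8 in 1 fit to all 18 arrays and 10 without experiment d, and for tethered against WTp53 the 10 became 3 and 4. The difference between the sets in the effect of WTp53 went from 10 to 17 members without experiment 0. The difference between the constructs went from 6 to 17 without experiment 0, to 3 with array weights and to 2 to 10 when single arrays were left out. The replicate block called 18, 17, 18, 20 and 10 members in the other comparisons within sets and 12 and 6 for the differences; the changed calls are given beside their results. The settings that leave out arrays use fewer samples; for the others the cause was not tested. Differences were also recomputed for the 3 called members with the smallest p in each comparison within a set. HSPA5 was added for WTp53 against the vector and ΔNp53:WTp53 against WTp53. Of these 300 values, 273 kept their direction and side of the threshold, 22 lost the call, 5 gained it and none reversed. PDIA4, ERO1A and genes shown with array values in other comparisons were not among them, so the count describes mostly the smallest p. Median centring shifted the median of all genes by less than 0.1 in every comparison. In the second set it went from −0.023 to −0.067 for WTp53 against the vector and from 0 to −0.077 for tethered WTp53. The member medians there were −0.093 and −0.0083 before centring, so differences of this size depend on the normalization. Signal over background was not analysed here, so no gene can be called unexpressed.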
